A study of Rattus norvegicus with 25 samples.

Results

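Solute carriers, whose gene symbols begin with Slc, were examined in rat liver as a family of membrane transporters. The array annotation assigned 198 probes to 171 such genes, including the organic anion carriers named Slco and apart from 2 genes not analysed here, and another 2 probes carried several Slc symbols and were not named. Each gene was represented by its brightest probe, and it was kept if that probe lay above the array median on at least 50% of the arrays of 1 group. This rule kept 90 genes of 171, beside 5473 probes of 9911 on the whole array that passed the filter for testing. All 90 lay above background on every array on which they were measured. The rule compared no groups with each other, but it was applied to each group apart. A gene could thus enter through a single group in which it was high. Slc44a4 and Slc9a2 entered through deficient arrays alone, and Slc29a2 through supplemented arrays alone. Just inside the limit of the rule were Slc7a6os, Slc16a7 and Slc29a2, and just outside it Slc35a4 and Slc20a1. Of the 81 genes not kept, 44 lay above background on all 25 arrays and 8 on none, and no statement on differences is made about them. Slc4a1ap and Slc7a6os share the first letters of the symbol but do not encode carriers, so 88 of the 90 are transporters.

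The 25 arrays measured liver RNA of individual male Sprague-Dawley rats that differed in their intake of pyrroloquinoline quinone (PQQ), a redox cofactor. Supplemented rats (6 arrays) were born to dams given a basal diet with added PQQ in the last 10 days of gestation and ate that diet afterwards, and deficient rats (6 arrays) had the same basal diet with none added. At 6.5 weeks of age some rats of both kinds were reassigned: depletion rats (3 arrays) were supplemented rats moved to the deficient diet for 48 h, and repletion rats (4 arrays) were deficient rats given intraperitoneal PQQ, 1.5 mg per kg body weight at 12 h intervals for 36 h. Rats on standard laboratory chow (6 arrays) served as a reference, and their diet differed from the others in its base as well as in PQQ. No vehicle injection is named in the labels, so injection and PQQ cannot be told apart in the repletion rats, and they give no age for the chow rats.

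The arrays fell into 5 sets that shared defective spots, and these sets were not balanced over the groups. Chow arrays lay in set 1 (chow 1 to 3) and set 5 (chow 4 to 6), and supplemented arrays in set 1 (supplemented 1), set 2 (2 and 3) and set 3 (4 to 6). Deficient arrays lay in set 3 (deficient 1 to 5) and set 4 (deficient 6), all depletion arrays in set 4 and all repletion arrays in set 5. Chow 1 and 2, and supplemented 5 and 6, were nearly identical and each pair was averaged, which left 23 samples (5 chow, 5 supplemented, 6 deficient, 3 depletion, 4 repletion). Median intensity minus background ranged from 105.8 to 283.43, lowest in chow 6 and next lowest in deficient 6 (122.39). Precision is limited by how few arrays a group has. All 4 hepatocyte markers on the array were above background on every array. Values below are log2 intensities after quantile normalization, and a gene passed the threshold at an adjusted p under 0.05 in limma's moderated test, with Benjamini-Hochberg adjustment over all tested probes. In whole liver, fewer cells of a type and less RNA per cell cannot be told apart.

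Solute carriers move sugars, amino acids, nucleosides, vitamins, metals and metabolic acids across the plasma membrane and across the membranes of organelles. The numbered families differ in substrate and mechanism: some couple uptake to sodium or proton gradients, some exchange a substrate for another, and others let it equilibrate. Hepatocytes use them to take up nutrients from portal blood, to release glucose and ketone bodies, to supply mitochondria with nucleotides and acids, and to handle zinc, copper and iron.

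Of the 90 genes 26 had their lowest group mean in repletion rats, 19 in deficient, 17 in depletion, 14 in chow and 14 in supplemented rats. Deficient rats held the highest group mean of 29 genes. The same counts over all probes were not made. Among the 19 genes lowest in deficient rats were the 4 carriers that were higher in depletion than in deficient rats. These were Slc28a2, a sodium-coupled nucleoside carrier, and Slc45a3, a member of a family of sugar transporter relatives. The others were Slc16a1, a carrier of lactate, pyruvate and ketone bodies, and Slc34a2, a sodium-phosphate cotransporter. All 4 genes had their lowest group mean in deficient rats and passed as higher in depletion rats, but their highest group differed. Their start regions are shown so that the sequences can be compared. They were taken from RefSeq on build GRCr8, with 250 bases before and 50 bases after the annotated start, read 5′ to 3′ on the strand of the gene. Slc28a2 lies at chr3:129819538-129819837 (plus strand), Slc45a3 at chr13:45959217-45959516 (plus strand), Slc16a1 at chr2:194812410-194812709 (plus strand) and Slc34a2 at chr14:62143023-62143322 (minus strand). Capitals mark matches, on either strand, to the E-box CACGTG, the TATA box TATAAA or the GC box CCGCCC.
Slc28a2: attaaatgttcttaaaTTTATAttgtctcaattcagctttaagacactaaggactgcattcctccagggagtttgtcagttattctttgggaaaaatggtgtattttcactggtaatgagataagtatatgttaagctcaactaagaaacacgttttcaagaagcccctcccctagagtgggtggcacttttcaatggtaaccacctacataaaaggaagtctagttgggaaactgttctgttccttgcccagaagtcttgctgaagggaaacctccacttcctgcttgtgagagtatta
Slc45a3: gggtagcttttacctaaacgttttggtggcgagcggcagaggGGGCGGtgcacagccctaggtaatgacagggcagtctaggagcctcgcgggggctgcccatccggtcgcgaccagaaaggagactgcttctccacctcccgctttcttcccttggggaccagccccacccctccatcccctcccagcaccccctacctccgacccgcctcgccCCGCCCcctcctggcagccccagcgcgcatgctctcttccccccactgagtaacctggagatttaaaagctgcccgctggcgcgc
Slc16a1: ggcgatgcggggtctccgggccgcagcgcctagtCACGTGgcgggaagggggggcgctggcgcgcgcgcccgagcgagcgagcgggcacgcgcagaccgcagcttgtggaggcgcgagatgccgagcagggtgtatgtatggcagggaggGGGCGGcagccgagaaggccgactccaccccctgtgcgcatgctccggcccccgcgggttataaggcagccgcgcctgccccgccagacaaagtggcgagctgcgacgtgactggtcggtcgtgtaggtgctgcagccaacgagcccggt
Slc34a2: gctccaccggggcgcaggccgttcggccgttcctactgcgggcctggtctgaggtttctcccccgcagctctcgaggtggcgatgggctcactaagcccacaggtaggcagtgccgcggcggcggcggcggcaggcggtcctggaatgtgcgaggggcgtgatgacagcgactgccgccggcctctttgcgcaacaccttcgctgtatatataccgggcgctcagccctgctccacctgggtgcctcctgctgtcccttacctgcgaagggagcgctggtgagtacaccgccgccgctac

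The E-box was found in the window of Slc16a1, 216 bases before the start, and in 6.42% of all 33469 windows of this length. GC boxes were found in the windows of Slc16a1 and Slc45a3, and in 33.1% of all windows. The TATA box letters were found in the window of Slc28a2, 234 bases before the start, and in 14.2% of all windows. No match overlapped another, and the window of Slc34a2 held none of the 3 motifs. No motif was thus shared by all 4 windows. A match is a stretch of letters and no measurement of binding.

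Slc28a2 carries purine nucleosides into cells with sodium. Its log2 level was 11.04, 10.77, 11.84, 10.79 and 11.62 in the supplemented samples, and the 6 deficient samples ranged from 10.10 to 10.52 with a median of 10.36. The 2 groups did not overlap, and the deficient samples lay closer together than the supplemented ones. The depletion samples stood at 12.22, 11.96 and 12.12, above every supplemented and deficient sample. The repletion samples, at 10.62, 10.59, 10.49 and 10.59, overlapped the deficient range. Chow samples spread widely (12.15, 11.90, 11.60, 10.45 and 11.32), with the highest in array set 1.

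In the fit across all probes Slc28a2 was 1.83-fold lower in deficient than in supplemented rats (log2 difference -0.87, SE 0.23, limma adjusted p = 0.0402). It was 3.39-fold higher in depletion than in deficient rats (1.76, SE 0.27, limma adjusted p = 0.000457). Chow rats exceeded deficient rats by 1.15 (SE 0.23, limma adjusted p = 0.001), while repletion and deficient rats differed by 0.23 (SE 0.24, adjusted p = 0.468). When the array set was fitted as a block, the difference between deficient and supplemented rats was -0.90 (SE 0.28, limma adjusted p = 0.166), and within array set 3 its adjusted p was 0.142. The call was also lost in 8 of 11 fits that left out a sample each, with differences between -0.98 and -0.72. The difference between depletion and deficient rats passed with the block (1.57, limma adjusted p = 0.00335) and was also 1.57 within array set 4, where the 3 depletion samples faced deficient 6 alone, so that both values rest on that sample. That between chow and deficient rats passed with the block (1.89, adjusted p = 0.0497). No set held both chow and deficient samples, so this blocked value rests on supplemented 1, the only supplemented sample in a set with chow. Of the 24 genes that differed between chow and deficient rats, Slc28a2 alone passed with that block.

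Of the 3 carriers that were lower in deficient than in supplemented rats, Slc45a3 alone passed when the array set was fitted as a block. Supplemented samples read 8.45, 8.33, 8.97, 8.67 and 9.25, and deficient samples ranged from 7.33 to 8.0 with a median of 7.80. Depletion samples were at 9.09, 9.10 and 8.76 and repletion samples at 9.0, 9.02, 8.66 and 8.41, so every one of them lay above every deficient sample. The difference between deficient and supplemented rats was -0.98 (SE 0.18, limma adjusted p = 0.0039), and under the block for array set it was -1.22 (SE 0.21, limma adjusted p = 0.0222). Within array set 3 alone the same difference had an adjusted p of 0.0742. Slc45a3 was 2.34-fold higher in depletion than in deficient rats (log2 1.23, SE 0.21, limma adjusted p = 0.00101) and 2.02-fold higher in repletion than in deficient rats (1.02, SE 0.19, adjusted p = 0.000338). The first of these passed with the block (1.12, limma adjusted p = 0.006), and the second kept its size without passing (0.98, SE 0.43, adjusted p = 0.513). With the block the first rests on deficient 6 and the second on supplemented 1 as links between sets.

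Slc16a1, the monocarboxylate carrier, had supplemented values of 10.76, 9.93, 10.22, 9.84 and 9.72 and deficient values of 8.56 to 9.50 (median 9.15). Depletion samples were at 9.69, 9.96 and 9.95 and repletion samples at 10.04, 10.01, 9.81 and 9.83, again all above the deficient range. Chow samples, at 9.37, 9.42, 9.81, 9.31 and 9.53, lay between and overlapped both ranges. Slc16a1 was 2.04-fold lower in deficient than in supplemented rats (log2 difference -1.03, SE 0.18, limma adjusted p = 0.00334) and kept that call in each of the 11 fits that left out a sample. Under the block for array set the difference was -0.77 (SE 0.21, limma adjusted p = 0.105). The dimmer probe for this gene differed in the same direction without passing (-0.62, adjusted p = 0.109). Repletion exceeded deficient rats by 0.86 (SE 0.19, limma adjusted p = 0.00169), and this difference turned sign with the block (-0.21, adjusted p = 0.958). The blocked value rests on supplemented 1, the highest supplemented sample of this gene. The dimmer probe differed by 0.24 between repletion and deficient rats without the block (limma adjusted p = 0.399). Depletion exceeded deficient rats by 0.80 on the brighter probe (limma adjusted p = 0.0223) and by 0.61 on the dimmer, without passing (adjusted p = 0.138). Chow rats were lower than supplemented rats by -0.61 (SE 0.19, limma adjusted p = 0.0468), which was -1.36 with the block (adjusted p = 0.0158). Without the block the call was lost in 7 of 10 fits that left out a sample.

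Slc34a2, which brings phosphate into cells with sodium, varied more within groups. Supplemented samples read 9.09, 9.05, 9.05, 8.65 and 7.54, and deficient samples ranged from 6.99 to 8.60 (median 7.96), so these groups overlapped and their difference did not pass (-0.82, SE 0.31, limma adjusted p = 0.155). Depletion samples (9.62, 9.14, 9.94) and repletion samples (9.50, 9.67, 9.28, 10.16) lay above every deficient sample. Slc34a2 was 3.28-fold higher in depletion than in deficient rats (log2 1.71, SE 0.36, limma adjusted p = 0.0051) and 3.48-fold higher in repletion than in deficient rats (1.80, SE 0.33, adjusted p = 0.000311). The first difference was 1.52 under the block for array set (adjusted p = 0.0239) and the second was -0.02 (adjusted p = 0.998). With the block the first rests on deficient 6. The second rests on supplemented 1, the only supplemented sample in a set with chow, which links repletion to deficient rats. Chow samples of array set 5 were on average 0.86 above those of set 1, and the repletion samples were all of set 5. The part of the array set in the rise on repletion was not tested further, since no set held both repletion and deficient samples.

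**Figure D1:**
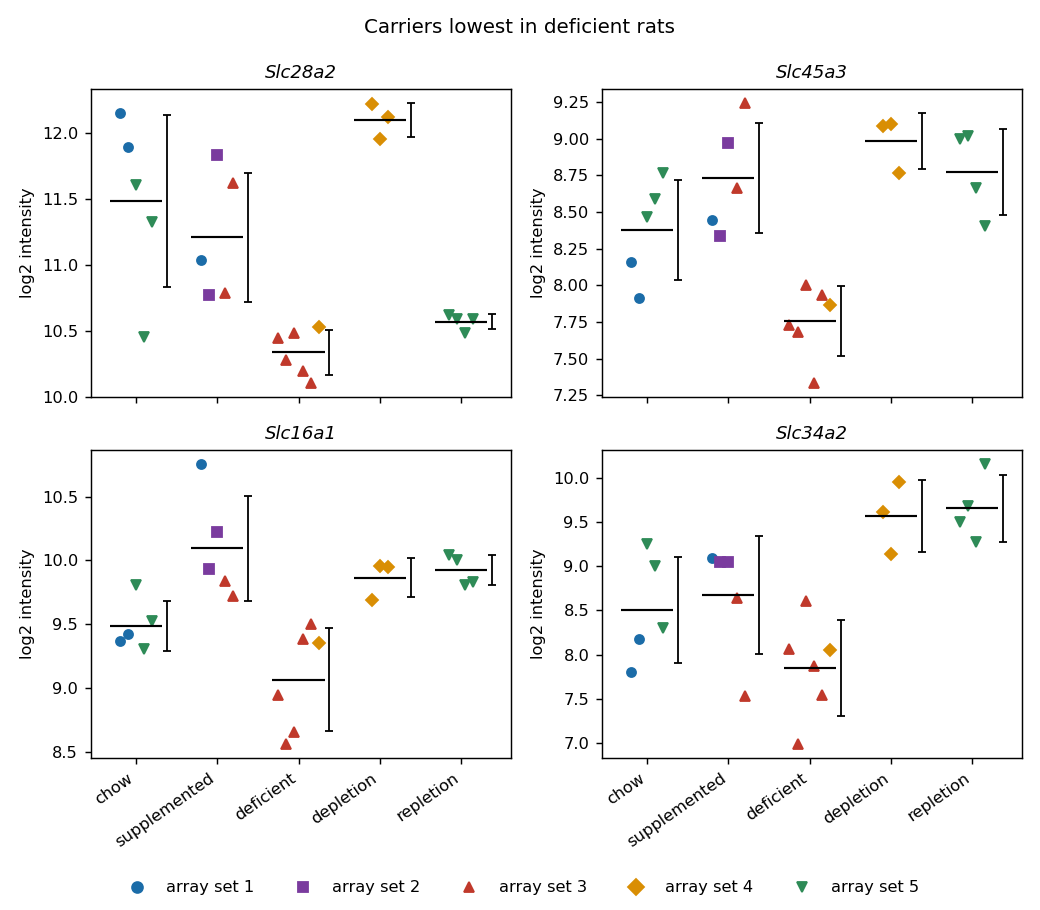
Log2 intensity (vertical axes) of Slc28a2, Slc45a3, Slc16a1 and Slc34a2 in each of 23 samples by group (horizontal axes), with marker shape and colour for the array set, a horizontal line at the group mean and a bar of 1 SD on either side of it. The 6 deficient samples lie below all supplemented samples for the first 3 genes, and repletion samples lie near the deficient ones for Slc28a2 but above them for the other 3.

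Deficient rats differed from supplemented rats in 5 of 90 solute carriers, and 3.27% of all tested probes passed in this comparison (1.72% higher and 1.55% lower). The comparison asked which genes responded to a lifelong lack of dietary PQQ. Besides the 3 that fell (Slc28a2, Slc45a3 and Slc16a1), 2 rose. Slc39a4 imports zinc, and its values were 10.60, 10.54, 10.03, 10.19 and 10.88 in supplemented samples against 10.70 to 11.45 (median 11.01) in deficient samples. It was higher by 0.62 (SE 0.16, limma adjusted p = 0.0307), the groups overlapped slightly, and the call was lost in 7 of 11 fits that left out a sample. Slc44a4, of the choline transporter-like family, read 7.54, 7.78, 7.82, 7.53 and 7.58 in supplemented samples and 7.82 to 8.26 (median 8.09) in deficient ones. It was higher by 0.45 (SE 0.11, limma adjusted p = 0.0202), and 3 of 11 fits that left out a sample lost the call. No supplemented sample of Slc44a4 lay above the array medians of 7.83, and the gene entered the tests through the deficient arrays alone. The filter thus favoured a call of higher in deficient rats for this gene.

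Slc45a3 alone of these 5 passed under the block for array set, and all 5 kept their direction. Within array set 3, which held 5 deficient and 2 supplemented samples, none of the 90 passed by limma, 13 had an unadjusted p under 0.05, and 0.184% of all probes passed. Without supplemented 1 the count was 2, beside 82 of all probes. Over the 90 genes the median log2 difference was 0.05, beside 0.00 over all tested probes. An unadjusted p under 0.05 was reached by 16 of the 90, beside 1008 of all 5472 tested probes. Slc39a7, a zinc carrier of the secretory pathway that was singled out after its values were seen, differed by -1.16 without passing (SE 0.33, limma adjusted p = 0.0639), and passed without deficient 3 (-1.35, adjusted p = 0.0245). Among 5 Kupffer cell and macrophage markers tested, Lyz2 and Cd14 fell, and the summed intensity of the list was 10327 to 11606 in supplemented and 7553 to 10692 in deficient samples. All 6 macrophage markers on the array lay above background on every array, and the stellate cell marker Pdgfrb also fell. The part of these cells in the carrier differences was not tested.

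**Figure D2:**
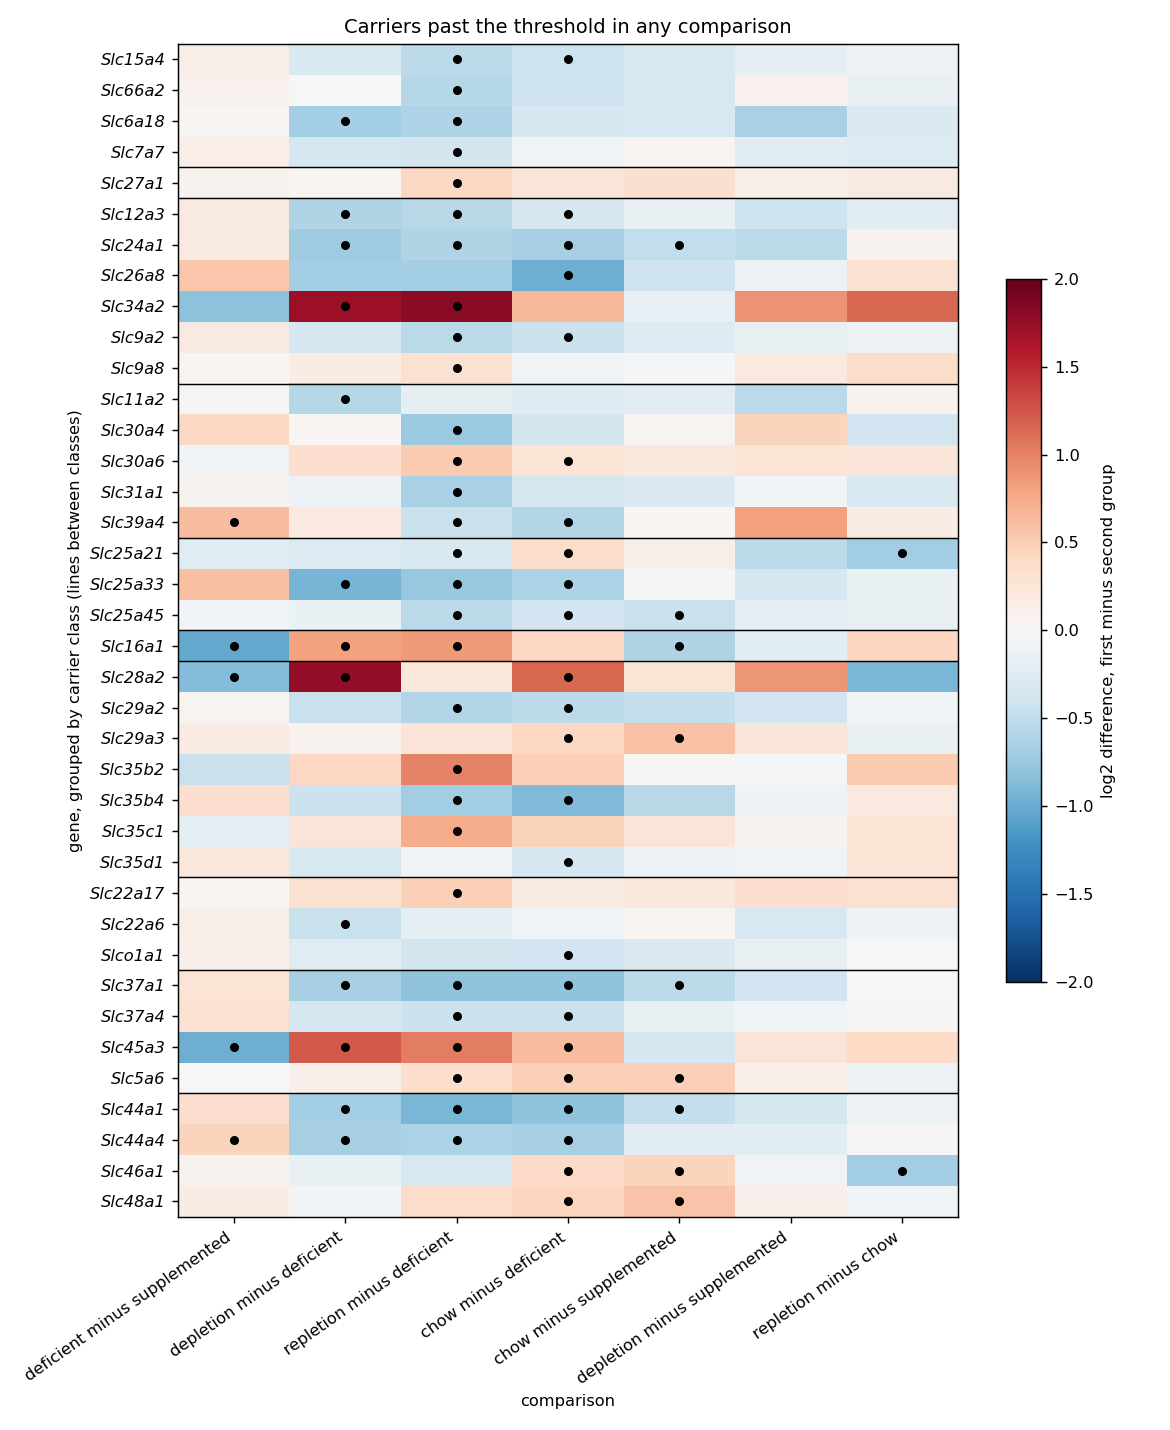
Log2 differences (colour, red for higher in the first group) of the 38 solute carriers that passed the threshold in any of 7 comparisons, with genes in rows by carrier class and comparisons in columns, and a dot where the adjusted p was under 0.05. The 4 columns that involve deficient rats carry most of the dots, and the column for depletion minus supplemented carries none.

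The depletion rats, which had been without PQQ for 48 h, differed from deficient rats in 13 of 90 carriers, where 7.67% of all tested probes passed (2.62% higher and 5.05% lower). The 4 that were higher were Slc28a2, Slc34a2, Slc45a3 and Slc16a1, the carriers described above. The 9 that were lower came from several classes: the choline carrier Slc44a1 and its relative Slc44a4, the glucose 6-phosphate antiporter Slc37a1, the mitochondrial pyrimidine nucleotide carrier Slc25a33, the iron and manganese importer Slc11a2, the sodium-calcium-potassium exchanger Slc24a1, the sodium-chloride cotransporter Slc12a3, the organic anion exchanger Slc22a6, and Slc6a18. Slc25a33 was lower in depletion than in deficient rats by 0.93 on the log2 scale (SE 0.21, limma adjusted p = 0.00964). Its depletion values were 9.10, 8.76 and 9.12, and its deficient range was 9.46 to 10.82. Supplemented samples, the group that depletion rats came from, read 9.47, 8.98, 9.22, 9.56 and 9.39. Slc12a3 was lower in depletion than in deficient rats by 0.60 (SE 0.11, limma adjusted p = 0.00277). Slc28a2, Slc34a2, Slc45a3, Slc44a4 and Slc12a3 kept the call in all 9 fits that left out a sample, and the other 8 carriers lost it in 1 to 5 of them, Slc25a33 without depletion 2. Slc44a4 entered the tests through the deficient arrays alone, where it was high.

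Under the block for array set 7 of the 13 still passed, but this block compares the depletion samples with deficient 6, the only deficient sample of their set. Within that set Slc28a2, Slc34a2, Slc45a3, Slc44a1 and Slc25a33 of the 13 passed, in a fit that takes this single sample to vary like the depletion samples. The count of carriers passing was 40 with the block, beside 39.6% of all probes, and 18 without deficient 6, beside 651 of all probes. Slc2a9, a urate and hexose transporter, was an example of a gene whose difference depended on that sample. It differed by -0.03 between depletion and deficient rats (limma adjusted p = 0.977) and by 1.74 with the block (adjusted p = 8.87e-05). Deficient samples of Slc2a9 ranged from 7.50 to 9.87 with a median of 9.57. In the same comparison Pdgfrb, 1 of 3 stellate cell markers tested, was higher in depletion rats by 0.96 (limma adjusted p = 0.000314), and Flt1, 1 of 3 endothelial markers tested, was lower by -0.85 (adjusted p = 0.000682). The other stellate cell markers, Col1a1 (-0.46) and Reln (-0.25), differed in the direction opposite to Pdgfrb without passing. The summed intensity of the endothelial list was 1375 to 1765 in depletion and 1878 to 2403 in deficient samples, and that of the stellate list 2565 to 3284 and 2679 to 3384. The part of these cells in the carrier differences was not tested.

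Against supplemented rats, from which they had been taken, depletion rats differed in 0 of 90 carriers by limma, beside 0.183% of all tested probes (0.0733% higher and 0.11% lower). An unadjusted p under 0.05 was reached by 19 of 90 carriers, beside 800 of all 5460 tested probes. Slc28a2 differed by 0.89 (SE 0.27, limma adjusted p = 0.119) and Slc39a4 by 0.81 (SE 0.19, adjusted p = 0.0628), and for both the depletion samples lay above all supplemented samples. Slc25a21 differed by -0.53 (SE 0.14, limma adjusted p = 0.0685). No array set held both groups, and the median SE of a carrier was 0.17, so small differences were not detectable with 3 depletion samples. Under the block for array set 32 carriers passed, beside 27.9% of all probes, and these counts rest on deficient 6 as the link between sets. With arrays scaled to a common median in place of quantile normalization, the median of all probes was 0.14 here and 0.15 for depletion minus deficient. Under that scaling 3 carriers passed here, beside 4.63% of all probes.

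Repletion rats differed from deficient rats in 29 of 89 carriers, 10 higher and 19 lower, where 36.3% of all tested probes passed (15.5% higher and 20.8% lower). The share of carriers was thus near that of the whole array. The rise of Slc34a2, Slc45a3 and Slc16a1 is given above. Slc35b2 carries the sulfate donor PAPS into the Golgi and Slc35c1 carries GDP-fucose. Slc35b2 read 9.82, 9.73, 9.67 and 9.84 in repletion samples and 6.66 to 9.49 (median 9.11) in deficient samples. It was higher by 0.996 (SE 0.38, limma adjusted p = 0.0439), but by 0.57 without deficient 6, the sample at 6.66, and it lost the call when any repletion sample was left out. Slc35c1 was higher by 0.73 (SE 0.20, limma adjusted p = 0.00745) and the same sample was the lowest. Smaller rises were those of the zinc transporter Slc30a6 (0.52), Slc22a17, a receptor for lipocalin 2 (0.48), the fatty acid transporter Slc27a1 (0.41), the biotin and pantothenate carrier Slc5a6 (0.36) and the sodium-proton exchanger Slc9a8 (0.30). Slc27a1 and Slc9a8 each lost the call in 7 of 10 fits that left out a sample.

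The 19 that were lower in repletion than in deficient rats came from several classes. Slc44a1, the choline carrier, read 9.29, 9.03, 9.12 and 9.10 in repletion samples against 9.84 to 10.57 (median 9.88) in deficient samples, without overlap. It fell by 0.91 on the log2 scale (SE 0.15, limma adjusted p = 0.000102). Its 2 dimmer probes, which did not pass the filter, differed by 0.14 and -0.09. Slc37a1, the glucose 6-phosphate antiporter, fell by 0.81 (SE 0.16, limma adjusted p = 0.0007) and Slc44a4 by 0.64 (SE 0.11, adjusted p = 0.000225). Slc44a4 entered the tests through the deficient arrays alone, which favoured this direction. Slc31a1, the high-affinity copper importer, fell by 0.65 (limma adjusted p = 0.00149) on its brightest probe, while its other probe rose by 0.75 (adjusted p = 0.0263), so its direction is not settled. The zinc exporter Slc30a4 fell by 0.74 (SE 0.18, limma adjusted p = 0.00299) and turned sign under the block for array set (0.70, adjusted p = 0.541).

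None of the 89 carriers passed by limma under that block, 7 had an unadjusted p under 0.05, and 1.54% of all probes passed. Of the 29, 18 kept their sign. No set held both groups, and the block links them only through supplemented 1, the only supplemented sample in a set with chow. Leaving out a sample each gave counts from 23 (without repletion 1, beside 1584 of all probes) to 35 (without deficient 6, beside 2227). In the same comparison 3 of 5 macrophage markers (Lyz2, Cd14 and C1qa) rose, with a summed intensity of 8863 to 10503 in repletion samples, and 2 of 3 endothelial markers (Tek and Flt1) fell. The stellate cell markers Col1a1 (0.75) and Pdgfrb (0.49), 2 of 3 tested, and the neutrophil marker S100a9 (0.85) also rose. The macrophage markers C1qb (-0.28) and Aif1 (0.09) and the stellate cell marker Reln (-0.24) did not pass. Summed intensities were 1486 to 1729 for the endothelial and 3155 to 3684 for the stellate list in repletion samples. Their part in the carrier differences was likewise not tested.

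**Figure D3:**
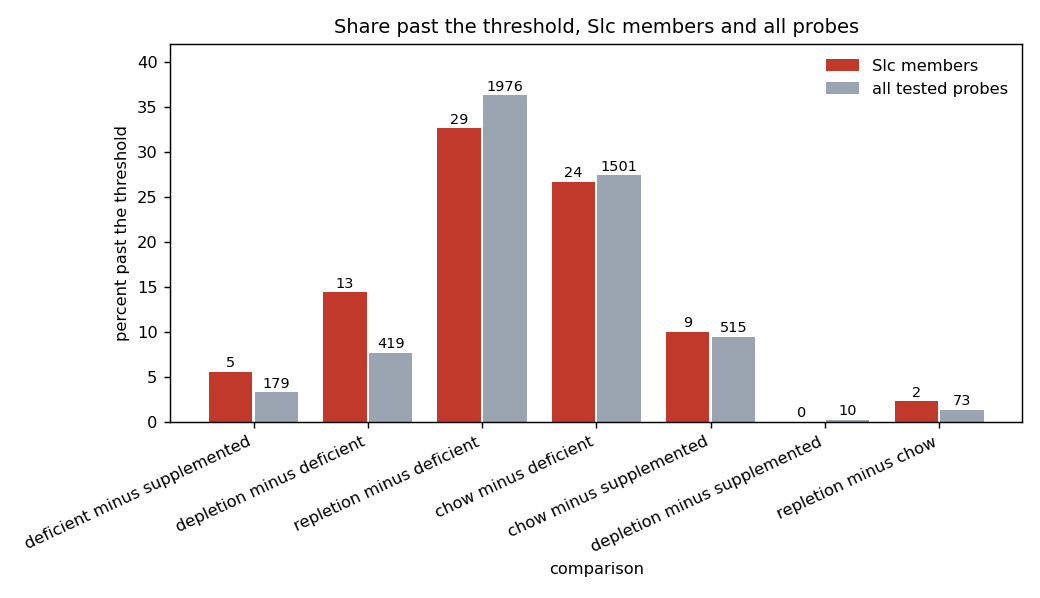
Percent of solute carriers (red) and of all tested probes (grey) that passed the threshold, for 7 comparisons, with the number of genes or probes above each bar. The shares of carriers were near those of all probes in the comparisons of repletion and chow with deficient rats, and 14.4% of carriers stood beside 7.67% of probes for depletion minus deficient.

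Chow rats differed from supplemented rats in 9 of 90 carriers, where 9.41% of all tested probes passed (4.95% higher and 4.46% lower). They differed from deficient rats in 24 of 90, 8 higher and 16 lower, where 27.4% of probes passed (12% higher and 15.4% lower). Slc5a6, which takes up biotin and pantothenate with sodium, read 11.07, 10.94, 10.97, 11.31 and 11.38 in chow samples. Supplemented samples were at 10.49, 10.67, 10.62, 10.82 and 10.69, and deficient samples ranged from 10.53 to 10.78, all below every chow sample. The difference was 0.48 from supplemented rats (SE 0.10, limma adjusted p = 0.00531) and 0.47 from deficient rats (SE 0.09, adjusted p = 0.000923), and both calls were kept in every fit that left out a sample. Blocked by array set, the differences were 0.51 (adjusted p = 0.148) and 0.62 (adjusted p = 0.183).

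The proton-coupled folate carrier Slc46a1 and the heme transporter Slc48a1 were higher in chow than in supplemented rats by 0.45 (SE 0.13, limma adjusted p = 0.0308) and 0.58 (SE 0.16, adjusted p = 0.0272). Slc29a3, an equilibrative nucleoside carrier of lysosomes, was higher by 0.58 (SE 0.15, limma adjusted p = 0.0189), and its dimmer probe by 0.22 without passing (adjusted p = 0.205). The 5 that were lower were Slc16a1, Slc37a1, Slc24a1, Slc44a1 and Slc25a45, by -0.61 to -0.44. The dimmer probes of Slc44a1, which did not pass the filter, differed by 0.25 (SE 0.07) and -0.04 (SE 0.13). Leaving out a sample each lost the call of Slc46a1 and Slc48a1 in 5 of 10 fits and that of Slc29a3 in 3. Each of the 5 lower carriers lost it in 6 to 8 of 10 fits. Without chow 6, the array with the lowest median intensity, 1 carrier passed, beside 211 of all probes. Under the block for array set Slc16a1 alone of the 9 passed, the others had adjusted p values of 0.148 to 0.942, and 2.65% of all probes passed. With array set as a random block none of the 90 passed by limma, 13 had an unadjusted p under 0.05, and 1.11% of all probes passed. The fixed block rests on set 1, the only set with both groups, which held 2 chow samples and supplemented 1, the highest supplemented sample of Slc16a1. In the authors' deposited value table, fitted the same way, 4 of the 9 passed, and all 5 that were lower lost the call. The stellate cell marker Col1a1 was higher in chow than in supplemented rats by 0.73 (limma adjusted p = 0.0251), 1 of 3 such markers tested, and its part was not tested. The other stellate cell markers, Reln (-0.21) and Pdgfrb (-0.0021), did not pass.

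Among the 16 carriers lower in chow than in deficient rats were Slc44a1 (-0.81, SE 0.14, limma adjusted p = 0.000286), Slc44a4 (-0.66, SE 0.10, adjusted p = 0.000173) and Slc37a1 (-0.80, SE 0.15, adjusted p = 0.000759), none of which overlapped between these groups. The 2 dimmer probes of Slc44a1, which did not pass the filter, differed by 0.27 (SE 0.07) and -0.04 (SE 0.12). Slc44a4 entered the tests through the deficient arrays alone, which favoured this direction. The nucleotide sugar carrier Slc35b4 was lower by -0.89 (SE 0.19, limma adjusted p = 0.00167) and Slc26a8, an anion exchanger known from the testis, by -0.98 (SE 0.34, adjusted p = 0.0365). Slc26a8 lost its call in 7 of 11 fits that left out a sample. Of 5 macrophage markers, 4 (Lyz2, Cd14, C1qa and Aif1) were higher in chow than in deficient rats, with a summed intensity of 10671 to 14168 in chow samples. The stellate cell markers Col1a1 (1.15, limma adjusted p = 0.000226) and Pdgfrb (0.52) were also higher and the endothelial marker Flt1 was lower (-0.43), and the part of these cells was not tested. The stellate cell marker Reln differed by -0.25 without passing. Slc37a4, which carries glucose 6-phosphate into the endoplasmic reticulum for the last step of glucose release, was lower by -0.44 (SE 0.15, limma adjusted p = 0.0321) and lost the call in 5 of 11 fits that left out a sample, the fit without deficient 6 among them.

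Repletion and chow samples shared array set 5, so this comparison could be made within a set. Of 89 carriers 2 passed, beside 1.34% of all tested probes (0.569% higher and 0.771% lower), and both were lower in repletion rats. Slc25a21 carries oxoadipate, an intermediate of lysine breakdown, into mitochondria. It read 7.88, 7.98, 7.79 and 8.03 in repletion samples and 8.70, 8.60, 8.58, 8.33 and 8.83 in chow samples, without overlap. The difference was -0.69 (SE 0.12, limma adjusted p = 0.00827), and it was -0.66 under the block for array set (SE 0.13, limma adjusted p = 0.0146). Slc46a1, the folate carrier, read 9.93, 9.82, 9.72 and 9.92 against 10.54, 10.46, 10.38, 10.52 and 10.83. It differed by -0.70 (SE 0.14, limma adjusted p = 0.0124) and by -0.73 with the block (adjusted p = 0.00589). Within array set 5 alone the adjusted p values were 0.084 and 0.0522. Both calls were kept in all 9 fits that left out a sample. The macrophage marker Cd14 was lower in repletion than in chow rats.

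Slc25a21 had its lowest levels in depletion and repletion rats. Its group means were 8.61 ± 0.19 (SD, n = 5) in chow, 8.50 ± 0.22 (n = 5) in supplemented, 8.25 ± 0.19 (n = 6) in deficient, 7.97 ± 0.07 (n = 3) in depletion and 7.92 ± 0.11 (n = 4) in repletion rats. Neighbours in this order did not pass where they were compared (limma adjusted p = 0.578, 0.234 and 0.218), and depletion was not compared with repletion. Chow exceeded deficient rats by 0.36 (SE 0.11, limma adjusted p = 0.0211, a call lost without chow 6), and repletion was below deficient rats by -0.33 (SE 0.12, adjusted p = 0.037). The latter was 0.15 under the block for array set (adjusted p = 0.954) and lost its call in 6 of 10 fits that left out a sample.

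**Figure D4:**
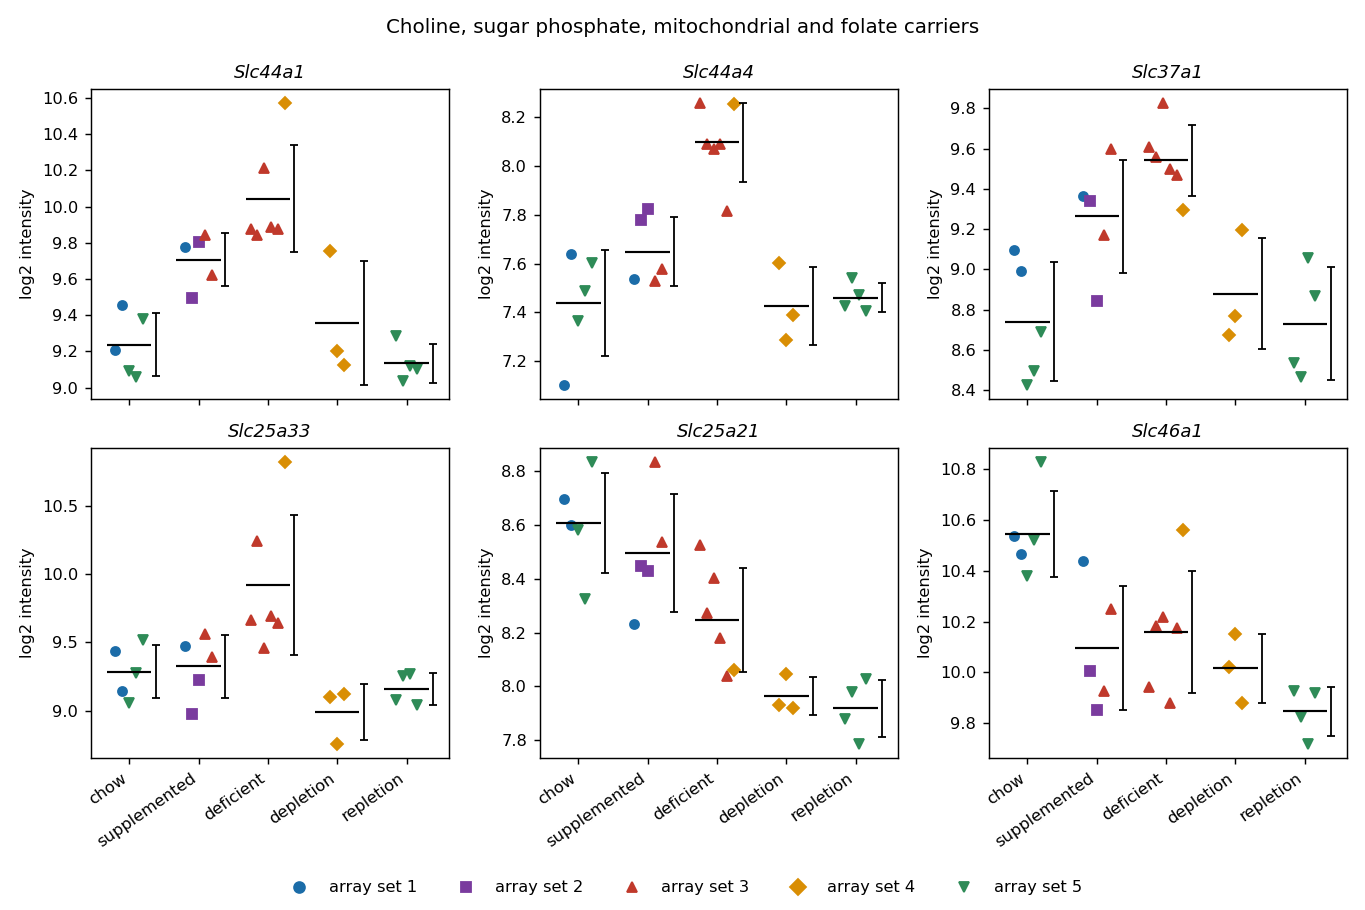
Log2 intensity (vertical axes) of Slc44a1, Slc44a4, Slc37a1, Slc25a33, Slc25a21 and Slc46a1 in each of 23 samples by group (horizontal axes), with marker shape and colour for the array set, a line at the group mean and a bar of 1 SD on either side. The first 4 have their highest mean in deficient rats, and the repletion samples of Slc25a21 and Slc46a1 lie below every chow sample. Slc44a4 entered the tests through the deficient arrays alone.

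By class, the mitochondrial carriers kept 14 of 18 annotated genes and the metal carriers 15 of 15. Amino acid and peptide carriers kept 10 of 36. Most kept members passed in no comparison (52 of 90), and the share of all tested probes that passed in none was not counted. Slc25a5, an adenine nucleotide translocase, had group means from 13.81 to 14.17, and the phosphate carrier Slc25a3 from 10.82 to 11.21. Slc25a3 passed for repletion minus deficient without deficient 3 (-0.48, limma adjusted p = 0.01) or without repletion 3. Slc25a30 was unlike these, with single samples from 10.27 to 13.93 and a within-group SD of 0.75 to 1.44. It differed by -1.51 between repletion and deficient rats without passing (SE 0.61, limma adjusted p = 0.0593), and it passed in 3 of 10 fits that left out a sample.

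Among the metal carriers, the zinc and manganese importers Slc39a8 and Slc39a14 passed in no comparison, and their group means spanned 11.61 to 11.83 and 11.44 to 11.89. Slc39a14 read 9.84 in deficient 6 against 11.94 to 12.41 in the other deficient samples, and without deficient 6 it passed for chow minus deficient (-0.71, SE 0.17, limma adjusted p = 0.00345). The iron exporter Slc40a1 depended on the probe. Its brighter probe passed in no comparison, with group means of 10.65 to 11.03. Its dimmer probe was lower in repletion and chow than in deficient rats by -0.70 (limma adjusted p = 0.000487) and -0.69 (adjusted p = 0.000622), and in chow than in supplemented rats by -0.60 (adjusted p = 0.00733). Slc39a13 was measured in no repletion sample, because its spot was defective on the arrays of set 5, which is why 89 carriers were tested there. Of the organic anion and cation carriers, Slco2b1, Slc22a7 and Slc22a18 passed in no comparison, and Slco1a1 was lower in chow than in deficient rats (-0.38, SE 0.14, limma adjusted p = 0.0482). That call was lost in 7 of 11 fits that left out a sample. The dimmer probe of Slco1a1, which did not pass the filter, differed by 0.15 (SE 0.21). The fatty acid transporter Slc27a2, of the very long chain acyl-CoA synthetase family, had group means from 10.71 to 11.21 and passed in none. The amino acid carriers Slc38a2, Slc38a3 and Slc3a2, the heavy chain partner of the light chain carriers, also passed in none, but without deficient 6 Slc38a3 passed for chow minus deficient (0.63, limma adjusted p = 0.00151) and repletion minus deficient (0.45, adjusted p = 0.0181). Slc3a2 passed for chow minus supplemented without chow 3 (-0.50, limma adjusted p = 0.0314) and in 2 other fits of 10, and Slco2b1 passed for repletion minus deficient without repletion 1 (-0.38, adjusted p = 0.0424).

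Other transport genes of the array were described beside the solute carriers. Aqp8, a water channel of the hepatocyte canalicular membrane, was lower in deficient than in supplemented rats by -1.11 (SE 0.26, limma adjusted p = 0.021). It was higher in repletion (1.69), depletion (1.09) and chow rats (1.55) than in deficient rats, and all 3 passed. Atp2b1, a plasma membrane calcium pump, was higher in repletion and chow rats than in deficient rats by 1.41 and 1.22, and the copper pump Atp7a was lower by -0.56 and -0.55. Of 7 pumps and channels tested, 3 rose and 3 fell in repletion against deficient rats, and 3 rose and 1 fell in chow against deficient rats, where 36.3% and 27.4% of all probes passed. Of 7 ABC transporters tested, Abcd3, a fatty acid transporter of peroxisomes, was higher in deficient than in supplemented rats by 0.54 (SE 0.14, limma adjusted p = 0.0303). It was lower in repletion and chow rats than in deficient rats by -0.74 each. Abcc6 was also lower in both (-0.44 and -0.48), and Abca1, a cholesterol exporter, in chow rats (-0.82), so that 2 of the 7 passed for repletion and 3 for chow against deficient rats. Both outer membrane channels tested, of the voltage-dependent anion channel family, passed in no comparison.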

How the data were processed

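CodeLink UniSet Rat I arrays measured liver RNA, each array holding a single sample, per the labels' protocols. Spot intensity, background intensity and a defect flag (unit other) come from the deposited scanner tables, per the file headers, with no normalization between arrays. The authors' deposited value table holds a processed signal, and the sources used here do not say how it was normalized. It served as an alternative, with 28 zeros set to missing.

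Of 10399 spots per array, 9911 are gene probes. Normexp in limma (offset 50) corrected the background, controls were removed, flagged spots were set to missing, and values were taken to log2 and then quantile normalized. Probes entered the tests if at least 50% of a group's samples had them above the array median. A probe counted as above background if it exceeded the median plus 3 MADs of dim control spots. Of the probes, 7178 had a single symbol in the platform annotation, 86 had several and 2647 none.

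All groups were fitted together with limma 3.58.1 in R 4.3.3 (empirical Bayes, Benjamini-Hochberg over all tested probes, 2-sided). Nearly identical arrays of a group (spread of log2 ratios under 0.15 and ratio of spreads under 1.5) were averaged. Array sets were found from shared defective spots (overlap over 0.5). Samples with the same number are not said to belong together, and the deviations of 36 same-numbered pairs had a median correlation of -0.037, with 8 above 0.1, so no pairing was used. Each remaining sample was taken as a separate rat, since RNA was isolated per rat by the labels.

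The gene family, its classes and the marker lists were chosen with earlier results of these data known. Genes are named by rule: up to 10 risen and 10 fallen per comparison, Slc28a2 and Slc25a21, and up to 5 per class by level. The fit was tested on simulated data. Alternatives covered background correction, scaling, the filter, defective spots, averaging, blocks and leaving out samples. Python 3.11.15 and matplotlib 3.10.9 drew the figures.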

Additional observations from a re-analysis of the deposited data

Results flagged for a closer look

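Of 152 groups of 4 to 6 samples tested over the 38 carriers that passed in any comparison, 8 held a sample whose gap to its nearest neighbour was above Dixon's 95% critical value, where chance gives about 1 in 20. Deficient 6 was that sample in 6 of them. It was high for Slc37a4 (13.09, against 12.18 to 12.43 in the other deficient samples), Slc48a1 (9.83, against 8.76 to 9.12) and Slc29a2, an equilibrative nucleoside carrier (8.34, against 7.54 to 7.81). It was low for the nucleotide sugar carriers Slc35b2 (6.66, against 9.02 to 9.49), Slc35b4 (8.73, against 9.70 to 9.95) and Slc35c1 (7.64, against 8.80 to 9.10). Deficient 6 was also the only deficient array in set 4 and had a low median intensity, and the part of either was not tested. For Slc34a2 the averaged supplemented arrays 5 and 6 read 7.54, below the other supplemented samples at 8.65 to 9.09. Slc25a45 was highest in deficient 1 (8.33, against 7.76 to 7.97).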

How the results depend on the processing

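The counts of carriers passing depended mostly on how the array set was treated. With the array set as a fixed block, 1 carrier passed for deficient minus supplemented, 0 for repletion minus deficient, 32 for depletion minus supplemented, 40 for depletion minus deficient, 2 for chow minus supplemented and 1 for chow minus deficient. The shares of all probes that passed were 0.274%, 1.54%, 27.9%, 39.6%, 2.65% and 2.23% in that order. As a random block the array set gave 3, 0, 29, 0 and 3 for deficient minus supplemented, repletion minus deficient, depletion minus deficient, chow minus supplemented and chow minus deficient. Beside these stood 1.85%, 0.239%, 26.4%, 1.11% and 1.55% of all probes. Within a set, 0 passed in set 3 (deficient minus supplemented), 28 in set 4 (depletion minus deficient), 1 in set 1 (chow minus supplemented) and 0 in set 5 (repletion minus chow). No set held both groups of repletion minus deficient, depletion minus supplemented or chow minus deficient, so within-set values could not be had. Unadjusted p values under 0.05 were reached by 7 and 11 of 89 carriers for repletion minus deficient under the fixed and the random block, by 13 of 90 for chow minus supplemented under the random block, and by 13 and 10 carriers within sets 3 and 5. These unadjusted counts were not made over all probes.

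With only the groups compared in the fit, the counts were 1 for deficient minus supplemented, 6 for depletion minus deficient, 3 for chow minus supplemented and 13 for chow minus deficient. Beside these stood 0.621%, 2.67%, 5.08% and 17.4% of all probes. The authors' value table gave 5 for chow minus supplemented (5 higher and 0 lower, against 4 and 5 in the reported fit), 15 for chow minus deficient and 3 for depletion minus supplemented. Beside these stood 6.85%, 22.8% and 1.3% of all probes. Depletion minus supplemented had no carrier passing in the reported fit. It gave 3 with arrays scaled to a common median (4.63% of all probes) and 3 with 25 separate arrays (1.61%). With defective spots kept 1 passed (0.708%), and with no filter on dim probes 1 (0.619%). Leaving out deficient 6 and chow 6 together, an alternative chosen after seeing the data, gave 5 for depletion minus supplemented, beside 3.24% of all probes. Other counts stayed within 1.5 times the reported ones, those under subtraction without normexp included.

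Leaving out each sample in turn gave 2 to 6 carriers for deficient minus supplemented, 23 to 35 for repletion minus deficient, 0 to 1 for depletion minus supplemented, 7 to 18 for depletion minus deficient, 1 to 13 for chow minus supplemented, 16 to 32 for chow minus deficient and 2 to 3 for repletion minus chow. The counts of all probes passing ranged in that order over 82 to 268, 1584 to 2227, 2 to 25, 154 to 651, 211 to 920, 1081 to 1961 and 22 to 105. With the number in the sample's title as a replicate block, the counts were 5, 29, 0, 14, 7, 30 and 2 in the order of deficient minus supplemented, repletion minus deficient, depletion minus supplemented, depletion minus deficient, chow minus supplemented, chow minus deficient and repletion minus chow. Beside these stood 2.78%, 39.7%, 0.33%, 8.35%, 8.52%, 31.4% and 1.1% of all probes. The numbers do not mark a shared origin, and 4 of 23 samples correlated best with their own number.

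Of 82 calls of single carriers, 14 turned sign, all under the fixed block for array set. In repletion minus deficient these were Slc27a1 (-0.024), Slc16a1 (-0.21), Slc12a3 (0.045), Slc24a1 (0.13), Slc66a2 (0.086), Slc9a8 (-0.066), Slc30a4 (0.70), Slc34a2 (-0.025), Slc35b4 (0.042), Slc25a21 (0.15) and Slc7a7 (0.15). In chow minus deficient they were Slc12a3 (0.16), Slc30a6 (-0.14) and Slc35d1 (0.040). Under this block both comparisons reach deficient rats only through supplemented 1, the only supplemented sample in a set with chow. The part of that sample and the cause of these changes were not tested. The number of samples per group and array set limits what could be detected.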
